A study of Mus musculus with 8 samples.

Results

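Sorted cells are never wholly pure, and the RNA of other cells in a sort can be followed through genes that the sorted cells are not known for. A set of 39 marker genes of cells other than CD4+ CD8+ (double-positive) thymocytes was followed here in libraries of double-positive thymocytes, to ask how much of such RNA each library held and whether it differed between C57BL/6J and NOD/ShiLtJ (NOD) mice. The genes were taken by name, after the Ensembl identifiers of the count tables had been mapped to GENCODE M21 symbols, and all 39 were found among the 53465 genes listed. They fall into 8 classes: 7 B cell genes, 5 genes of antigen presentation on major histocompatibility complex (MHC) class II, 10 myeloid genes, 4 red cell genes, 4 stromal genes, 4 epithelial genes, 4 genes of natural killer (NK) and cytotoxic cells, and Foxp3 for regulatory T cells.

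Both groups were double-positive thymocytes of inbred mice, with no transgene or treatment named in the labels, and C57BL/6J served as the strain against which NOD, a strain that develops autoimmune diabetes spontaneously, was set. The sources used here do not give the sex or age of the mice. Per the labels, thymi were made into a cell suspension, dead cells were marked with 7AAD, and cells positive for CD4 and CD8a were sorted with doublets gated out by light scatter, and purity was looked at again after the sort. Each strain had 4 libraries, named by replicate numbers with the letters B and T, which the sources used here do not explain. Those with the same strain and B number were summed, which gave 4 samples, 2 per strain. Library 2-1 below means B number 2 and T number 1, and values in every library follow the order 1-1, 1-2, 2-1, 2-2. No label ties a B number to an animal of its own. The adjusted p-values therefore measure the spread between these 4 samples alone, which may be technical.

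Most cells of the thymus are double-positive thymocytes, which rearrange the T cell receptor alpha chain and are selected on MHC molecules shown by other cells. Those other cells are thymic epithelial cells, dendritic cells, macrophages that engulf dying thymocytes, and a small number of B cells, along with fibroblasts, vessels and red cells. Some dendritic cells carry CD8a or CD4 themselves, so a gate on these proteins need not remove all of them. In bulk RNA, fewer cells of a type and less RNA per cell cannot be told apart, so every level below is a level of RNA and not a share of cells.

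The NOD libraries were deeper, with 23.5 to 30.4 M reads in genes, where C57BL/6J libraries had 8.53 to 15.7 M. A count of 3 reads, taken as the limit that a count of 0 allows, came to between 0.0988 and 0.352 CPM (counts per M reads in genes) in a single library. The 12 reference genes of the double-positive stage passed the strain test described below (edgeR) in 0 of 12 cases. Of all tested genes 1.91% were called higher and 1.78% lower. At an unadjusted p under 0.05, 1 was higher and 3 were lower, beside 6.81% and 6.3% of all tested genes. DESeq2 called 1 lower, beside 2.65%. The 12 genes summed to 19251 to 20293 CPM in C57BL/6J libraries and 15121 to 18719 CPM in NOD libraries, with a ratio of means of 0.832. Per kilobase of exon, Rag1, a subunit of the recombinase, stood at 1338 reads per M in C57BL/6J and 905 in NOD, and Cd8a at 422 and 463. Dntt, which adds bases at receptor joints, stood at 857 and 619 on the same scale.

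Libraries that stand apart matter for several results. In C57BL/6J sample 2, library 2-1 held all 13 reads of S100a8, all 20 reads of S100a9 and all 12 reads of Col1a1, and library 2-2 held 0 of each. NOD sample 2 stood above the other 3 samples in kappa, heavy variable and switched heavy chain RNA, in both of its libraries. Ratios of S100a8, Col1a1, Iglc2 and Cxcr2 are given with and without library 2-1, and Igkc and Jchain with and without NOD sample 2.

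Marker RNA was a small part of every library. The 39 genes together took 509, 473, 469 and 441 CPM in the C57BL/6J libraries and 432, 385, 506 and 609 CPM in the NOD libraries, or 0.0385% to 0.0609% of the reads in genes. The sums of the strains overlapped, with NOD libraries at both ends of the range. Ighm, the constant region of the immunoglobulin mu heavy chain, made up 59.9% to 76.2% of these reads. Without Ighm the other 38 genes summed to 153, 159, 125 and 105 CPM in C57BL/6J and to 140.4, 154, 192 and 228 CPM in NOD, where both libraries of sample 2 lay above all others. Set against the 12 reference genes, all 39 markers came to 2.25% to 2.51% in C57BL/6J and 2.31% to 3.94% in NOD. The summed level of the reference genes was itself lower in every NOD library than in every C57BL/6J library.

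Traces of nearly every marker could be found. Of the 39 genes, 27 had a read in all 8 libraries and 0 had no read at all. At the depth as sequenced, 34, 31, 36 and 31 genes had a read in the C57BL/6J libraries and 37, 35, 36 and 37 in the NOD libraries. After each library was thinned to 8.527 M reads the counts were 33, 31, 35 and 31 against 33, 35, 34 and 36, so the ranges overlapped more. Genes with at least 10 reads numbered 16 to 22 against 27 to 32 as sequenced, and 16 to 18 against 18 to 23 after thinning. Between 17 and 18 genes exceeded 1 CPM in a C57BL/6J library and between 20 and 24 in a NOD library. Only 3 to 5 and 5 to 9 genes, respectively, exceeded 10 CPM.

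Levels of different genes were compared per kilobase of merged exon, with Cd8a as the yardstick. By this measure 30 of the 39 genes stood under 1% of Cd8a in both strains. Ighm was the highest, at 180 reads per kilobase per M in C57BL/6J and 160 in NOD, or 42.7% and 34.6% of Cd8a. Igkc, the immunoglobulin kappa constant region, stood at 1.15% and 13.3% of Cd8a. Apoe, an apolipoprotein that macrophages make in quantity, stood at 4.15% and 1.09%, and Gzma, a granzyme of cytotoxic cells, at 4.12% and 4.55%. None of the other 35 genes exceeded 2.44% in either strain. The plot of levels per kilobase sets the markers beside genes of the sorted stage.

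**Figure D1:**
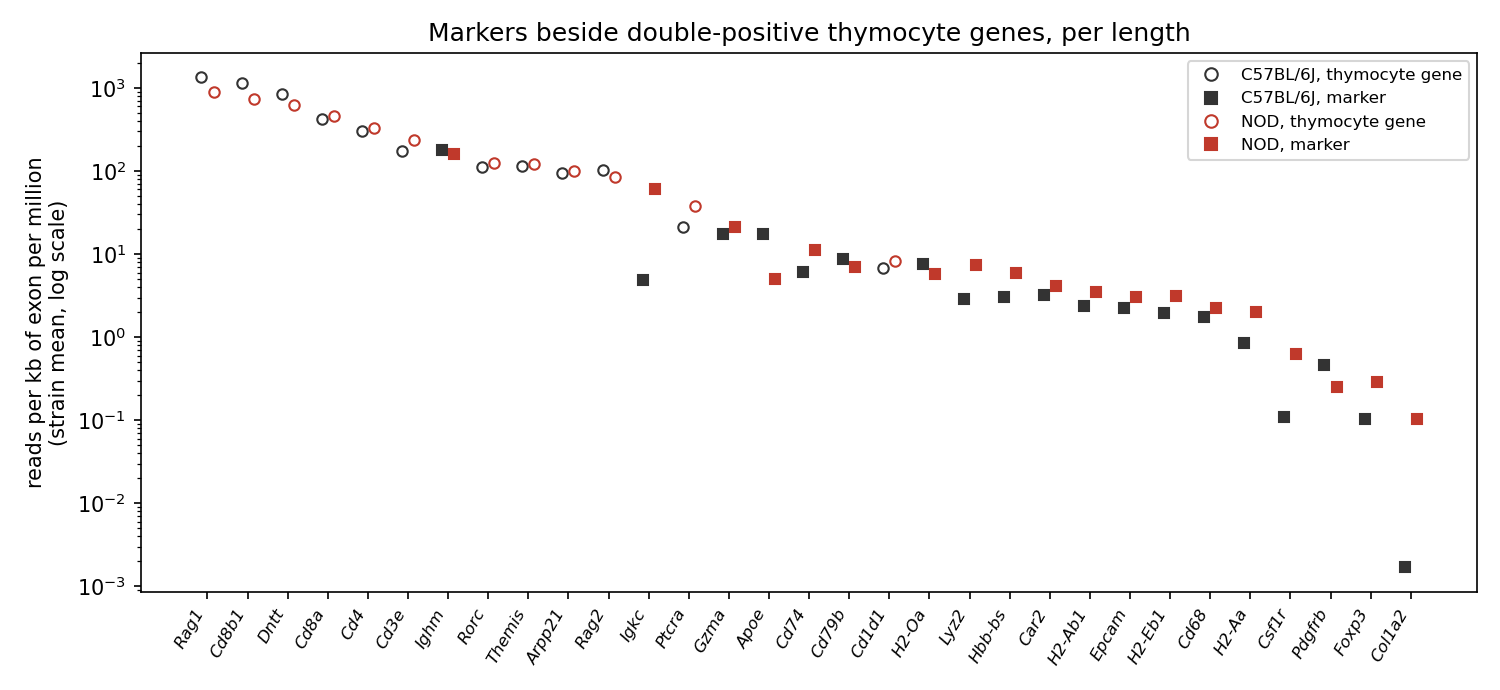
Mean level of the 19 markers described in each library and of the 12 double-positive reference genes in reads per kilobase of exon per M reads in genes (log axis), for C57BL/6J and NOD. Ighm, at 180 and 160, lies among the reference genes, while most other markers lie far below Cd8a at 422 and 463.

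The strains were tested with the edgeR quasi-likelihood fit over all 17291 genes that passed the filter on low counts, and genes with a Benjamini-Hochberg adjusted p under 0.05 are named as called. Of the 39 markers 32 passed the filter, and 7 did not (Mpo, S100a8, S100a9, Col1a1, Col3a1, Psmb11 and Ncr1). Csf1r and Col1a2 were called higher in NOD, 2 of 32, where 1.91% of all tested genes were called higher. Of these, Col1a2 passed the filter through NOD alone. Apoe was called lower in NOD, 1 of 32, where 1.78% of all tested genes were called lower. The log2 fold change (NOD over C57BL/6J) was positive for 25 of the 32 and negative for 7, with a median of 0.67, beside 52.3% positive and a median of 0.02 over all tested genes. At an unadjusted p under 0.05, 10 markers were higher and 1 was lower, beside 6.81% higher and 6.30% lower of all tested genes, the shares against which the counts by class below are to be read. A gene can pass the filter through the deeper strain alone, so this median is a description. Without NOD sample 2 it was 0.38, and with no filter it was 0.59 over all 39 genes beside 0.12 over all genes fitted that way.

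The values of single libraries describe the same genes in another way and add no evidence, since the libraries of a sample are not independent and the 32 genes had passed the same filter. For 10 of the 32 genes all NOD libraries lay above all C57BL/6J libraries, which held for 9.43% of all tested genes. These were Igkc, Ms4a1, Cd74, H2-Aa, H2-Ab1, H2-Eb1, Csf1r, Col1a2, Ccl5 and Foxp3, of which the test called Csf1r and Col1a2. The C57BL/6J libraries lay above all NOD libraries for 1 gene, Apoe, beside 7.17% of all tested genes. The plot of strain differences sets the 3 called genes beside the others.

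**Figure D2:**
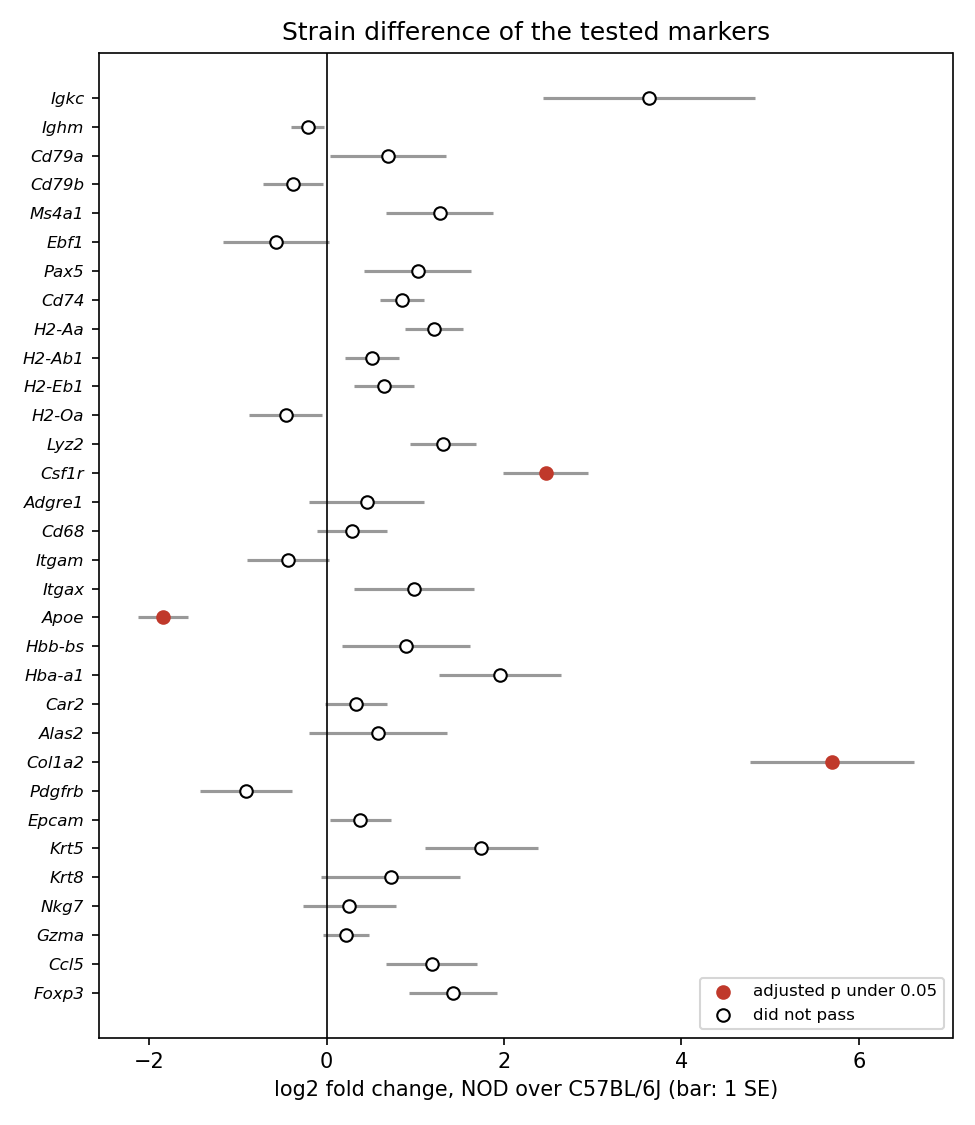
Log2 fold change of NOD over C57BL/6J with its standard error for the 32 tested markers, ordered by class, with filled points for adjusted p under 0.05. Apoe at -1.84, Csf1r at 2.47 and Col1a2 at 5.70 are the called genes, and the error bar of Igkc at 3.63 is the widest.

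Ighm held most reads of the B cell markers in every library, and no B cell marker was called in the edgeR fit. Ighm was at 357, 314, 344 and 336 CPM in the C57BL/6J libraries and at 291, 231, 314 and 381 CPM in the NOD libraries. The strains overlapped, and the log2 fold change was -0.21 ± 0.18 (SE), with an adjusted p of 0.755. Transcripts of the unrearranged heavy chain constant region are known in developing T cells, so Ighm RNA is not particular to B cells. The gene lies on chromosome 12, 113418558 to 113422730, on the minus strand of GRCm38.

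Igkc behaved differently. It was at 1.38, 0.397, 4.46 and 3.75 CPM in C57BL/6J and at 9.90, 9.53, 60.1 and 50.8 CPM in NOD. Every NOD library lay above every C57BL/6J library, and the NOD samples, at 9.72 and 55.8 CPM, lay far apart. With means of 2.59 ± 2.29 CPM and 32.8 ± 32.6 CPM (SD, n = 2 samples per strain), the log2 fold change of 3.63 ± 1.19 had an adjusted p of 0.332. Both the size and the call moved widely with the samples used. With 1 sample left out, the log2 fold change was 2.96 without C57BL/6J sample 1 (adjusted p of 0.940) and 4.99 without sample 2 of that strain (0.665). Leaving out NOD sample 1 gave 4.40 (1.10e-32), and leaving out NOD sample 2 gave 1.89 (0.00358). Such a fit assumes that the lone sample of a strain varies like the other strain, so the last 2 values take no account of the distance between the NOD samples. With the 8 libraries as samples the adjusted p was 0.0253. The gene lies on chromosome 6, 70726435 to 70726966, plus strand.

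The receptor chain and transcription factor genes of the B lineage showed other patterns. Cd79b, a signalling chain of the B cell receptor, was at 15.3, 17.1, 8.98 and 9.38 CPM in C57BL/6J and 11.1, 10.8, 8.03 and 10.6 CPM in NOD. Those libraries overlapped, with C57BL/6J sample 1 highest, and the log2 fold change was -0.38 ± 0.34 with an adjusted p of 0.767. Leaving out C57BL/6J sample 2 gave -0.77 and leaving out sample 1 of that strain gave 0.14, a change of sign. Cd79a, its partner chain, stayed between 0.0993 and 0.506 CPM in all 8 libraries. Ms4a1, which encodes CD20, reached 0.117 to 0.446 CPM in C57BL/6J and 0.527 to 0.935 CPM in NOD, without overlap, and its log2 fold change of 1.27 ± 0.61 had an adjusted p of 0.435. Ebf1 and Pax5, transcription factors that set up the B lineage, had log2 fold changes of -0.57 ± 0.59 and 1.03 ± 0.60, with adjusted p-values of 0.812 and 0.577. In this class 1 gene was higher and 0 were lower at an unadjusted p under 0.05, and DESeq2 called 0.

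Other immunoglobulin segments were summed after the values of Igkc had been seen, as a description with no test. The 100 kappa variable segments came to 0.336 and 1.49 CPM in C57BL/6J samples 1 and 2 and to 2.52 and 14.2 CPM in NOD samples 1 and 2. The 113 heavy variable segments came to 1.09, 1.36, 3.07 and 14.2 CPM in the same order. The 6 constant genes of switched heavy chain classes, which mark B cells after class switching, came to 0.714, 3.59, 5.02 and 52.4 CPM. In all 3 groups NOD sample 2 was highest and NOD sample 1 next, while Ighm in NOD sample 1, at 261 CPM, was the lowest of the 4 samples. Without NOD sample 2, NOD is left with the values of sample 1, which for switched constant genes lay near C57BL/6J sample 2 (5.02 and 3.59 CPM). How far reads of NOD alleles were lost on a reference built from C57BL/6J was not tested.

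**Figure D3:**
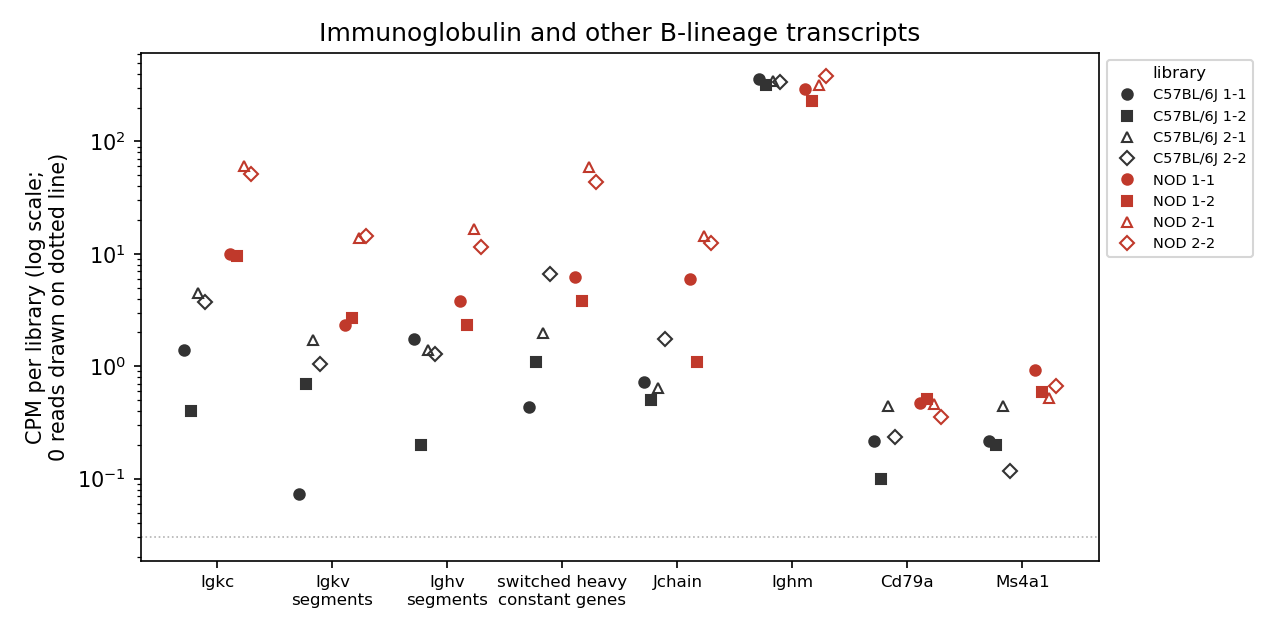
Immunoglobulin RNA in the 8 libraries in CPM (log axis), with C57BL/6J dark, NOD red, and open symbols for B number 2. Both libraries of NOD sample 2 are highest for kappa variable, heavy variable and switched constant segments, and Ighm lies at 231 to 381 CPM in every library.

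Genes of MHC class II antigen presentation, a task of dendritic cells, B cells and epithelial cells, had higher means in NOD for 4 of 5 members. For these genes too, loss of reads of NOD alleles on a reference built from C57BL/6J was not tested. Cd74, the invariant chain that guides class II molecules, was at 9.46, 8.44, 13.8 and 7.04 CPM in C57BL/6J and 17.7, 17.2, 18.1 and 23.4 CPM in NOD. H2-Aa, an alpha chain, was at 3.71, 2.48, 3.69 and 2.46 CPM against 7.35, 6.92, 6.62 and 10.3 CPM. In both genes the strains did not overlap and NOD library 2-2 was highest. The log2 fold changes were 0.85 ± 0.25 for Cd74 and 1.21 ± 0.33 for H2-Aa, with adjusted p-values of 0.120 and 0.0953, so neither was called by edgeR, while DESeq2 called both. The whole class had 2 genes higher and 0 lower at an unadjusted p under 0.05.

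H2-Ab1, the beta chain that pairs with H2-Aa, was at 6.41, 6.16, 6.69 and 4.10 CPM in C57BL/6J and at 7.82, 7.97, 6.88 and 13.5 CPM in NOD. H2-Eb1, another beta chain, was at 3.86, 2.48, 4.84 and 3.17 CPM against 5.52, 6.08, 5.93 and 6.88 CPM. The strains touched closely in H2-Ab1 (6.69 against 6.88 CPM) and did not overlap in either gene, and the adjusted p-values were 0.587 and 0.494. H2-Oa, a subunit of a chaperone that restrains class II peptide loading, was at 15.9, 13.2, 6.24 and 6.57 CPM in C57BL/6J and at 8.20, 7.09, 8.13 and 8.78 CPM in NOD. Here the strains overlapped and C57BL/6J sample 1 was highest. Its log2 fold change of -0.46 ± 0.41 had an adjusted p of 0.770 and became 0.34 without that sample. It shares 321 exon bases with BC051537.

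The promoters of class II genes carry a conserved Y box, an inverted CCAAT element. The letters CTGATTGG were searched on both strands in the 250 bases before each gene start, with no other motif searched. Of all 32851 promoters so read, 3.83% held them. All 3 class II members with an entry (H2-Aa, H2-Eb1 and H2-Oa, with none for H2-Ab1 and Cd74) held these letters. The stretch before the start is shown for H2-Aa and H2-Eb1, with the match in capitals (RefSeq, GRCm38.p6). That of H2-Oa is not shown, because 39 of its 110 bases lie inside the gene in GENCODE. The sequence of NOD was not examined. The coordinates are chr17:34287824-34287933 on the minus strand for H2-Aa and chr17:34305757-34305866 on the plus strand for H2-Eb1.
H2-Aa: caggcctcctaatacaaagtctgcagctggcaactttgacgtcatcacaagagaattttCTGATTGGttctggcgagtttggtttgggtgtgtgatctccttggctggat
H2-Eb1: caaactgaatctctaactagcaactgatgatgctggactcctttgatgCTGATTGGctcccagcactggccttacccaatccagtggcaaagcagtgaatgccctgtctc
The match began 51 bases before the start of H2-Aa and 62 before that of H2-Eb1, in both RefSeq and GENCODE. For H2-Oa the annotations differ, and the match began 46 bases before the RefSeq start but 7 before the GENCODE start.

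Myeloid markers moved in both directions. Apoe was at 41.9, 50.03, 31.1 and 26.9 CPM in the C57BL/6J libraries and at 7.35, 11.1, 10.1 and 15.3 CPM in the NOD libraries. All C57BL/6J libraries lay above all NOD libraries. Apoe was lower in NOD, at 10.8 ± 2.31 against 37.5 ± 11.1 CPM (SD, n = 2), with a log2 fold change of -1.84 ± 0.28 and an adjusted p of 0.00785 from the edgeR fit. Without C57BL/6J sample 1 the call was lost, at an adjusted p of 0.0853 and a log2 fold change of -1.45. The gene lies on chromosome 7, 19696109 to 19699188, minus strand, with no annotated gene over it.

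Csf1r, the receptor for the growth factor that macrophages depend on, went the other way. It was at 0.801, 0.794, 0.573 and 0.235 CPM in C57BL/6J and at 2.72, 4.98, 2.63 and 4.23 CPM in NOD, with no overlap. The means were 0.626 ± 0.243 and 3.61 ± 0.348 CPM (SD, n = 2), and the log2 fold change of 2.47 ± 0.48 had an adjusted p of 0.0233. Leaving out C57BL/6J sample 1 ended the call (adjusted p of 0.0717), as did leaving out sample 2 of that strain (0.146). Csf1r shares 873 exon bases with Hmgxb3 on the other strand, a gene at 53.4 and 55.1 CPM, and the sources used here do not say whether strand was used in counting, so reads of these genes cannot be told apart.

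The other myeloid genes were not called. Lyz2, the lysozyme of macrophages and neutrophils, was at 2.48, 6.65, 2.93 and 3.99 CPM in C57BL/6J and at 5.44, 8.94, 10.1 and 14.7 CPM in NOD. The strains overlapped through C57BL/6J library 1-2 and NOD library 1-1, and the log2 fold change of 1.31 ± 0.37 had an adjusted p of 0.109, although DESeq2 called Lyz2. Cd68, a lysosomal protein of macrophages, was at 2.04, 1.99, 2.29 and 2.70 CPM against 2.42, 3.54, 2.96 and 2.18 CPM, with overlap and an adjusted p of 0.863. Adgre1, which encodes the macrophage protein F4/80, and Itgam and Itgax, integrin chains of myeloid and dendritic cells, had adjusted p-values of 0.869, 0.817 and 0.661. Itgam shares 3450 exon bases with Gm49368 on the same strand, so its count is uncertain. Because Apoe fell while Csf1r rose, the 10 genes do not act as 1 measure: their summed level was 47.3 ± 10.1 CPM for C57BL/6J and 29.5 ± 5.55 CPM for NOD, and Apoe made up most of the first sum.

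Neutrophil transcripts came from few libraries. S100a8, a calcium-binding protein of neutrophil granules, had 5, 0, 13 and 0 reads in C57BL/6J and 0, 0, 1 and 2 reads in NOD, a ratio of C57BL/6J over NOD of 12.9 (counting interval 3.75 to 68.1) (95%, exact). S100a9, its partner, had 20 reads, all in C57BL/6J library 2-1, and 0 in NOD. Taking a floor of 3 counts over NOD, S100a9 was 14.3-fold higher in C57BL/6J, a value that leaves out the counting error of the 20 reads. Without library 2-1 the S100a8 ratio was 5.30 (1.03 to 34.1), from 5 reads against 3, and S100a9 had 0 reads in either strain. Mpo, an enzyme of early granulocytes, had 1 read in C57BL/6J and 10 in NOD.

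Among the red cell genes, the globins showed large differences between the libraries of a NOD sample, while Car2 did not differ beyond counting error in any sample. Hbb-bs, a beta globin, was at 4.37, 2.78, 0.892 and 1.06 CPM in C57BL/6J and at 1.27, 3.88, 3.65 and 9.85 CPM in NOD. Within NOD sample 1 the second library held 3.04 times the level of the first (95% counting interval 2.00 to 4.76), and within NOD sample 2 it held 2.70 times (2.15 to 3.40). Hba-a1, an alpha globin, differed 10.3-fold between the libraries of NOD sample 1 (3.20 to 52.4). The strains overlapped for Hbb-bs, and the log2 fold changes of 0.89 ± 0.72 for Hbb-bs and 1.96 ± 0.69 for Hba-a1 had adjusted p-values of 0.742 and 0.225.

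Car2, a carbonic anhydrase of red cells, was at 7.43, 8.74, 7.71 and 6.80 CPM in C57BL/6J and at 13.1, 12.5, 7.70 and 6.53 CPM in NOD. NOD sample 1 was highest and NOD sample 2 lay within the C57BL/6J range or below it, with an adjusted p of 0.810. Alas2, the first enzyme of heme synthesis in red cells, had an adjusted p of 0.862, and it shares 311 exon bases with Apex2, at 28.8 and 32.9 CPM. In this class 1 gene was higher and 0 were lower at an unadjusted p under 0.05, and neither edgeR nor DESeq2 called any.

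Collagen RNA was close to the limit of detection in C57BL/6J, while the stromal receptor gene Pdgfrb was well above it. Col1a2, a chain of type I collagen made by fibroblasts, had 1, 0, 0 and 0 reads in the C57BL/6J libraries and 27, 25, 31 and 51 reads in the NOD libraries. All NOD libraries lay above all C57BL/6J libraries, at 1.15, 1.05, 1.02 and 2.02 CPM. The ratio of the summed reads, scaled to depth, was 62.6 with a counting interval of 11.04 to 2489.5. Col1a2 passed the filter on low counts through NOD alone. In the edgeR fit it was called higher in NOD at an adjusted p of 0.00959. Its fitted log2 fold change of 5.70 ± 0.92 depends on a single C57BL/6J read. The call was lost without C57BL/6J sample 2 (adjusted p of 0.0611). The gene lies on chromosome 6, 4504814 to 4541544, plus strand.

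The partner chain did not repeat this pattern. Col1a1, the other chain of type I collagen, had 0, 1, 12 and 0 reads in C57BL/6J and 6, 7, 0 and 11 reads in NOD, so a C57BL/6J library held the most reads and a NOD library held none. Scaled to depth, NOD over C57BL/6J was 0.862 (0.422 to 1.84), and 7.54 (1.23 to 310.2) without C57BL/6J library 2-1. Col3a1, type III collagen, had 0, 1, 1 and 0 reads against 2, 2, 0 and 20, a ratio of 5.60 (counting interval 1.39 to 48.9) that rests on NOD library 2-2. Pdgfrb, a growth factor receptor of pericytes and fibroblasts, was at 3.06, 3.08, 1.97 and 1.88 CPM in C57BL/6J and 1.10, 0.591, 1.98 and 1.82 CPM in NOD. The strains overlapped for Pdgfrb, and the log2 fold change of -0.91 ± 0.52 had an adjusted p of 0.556.

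**Figure D4:**
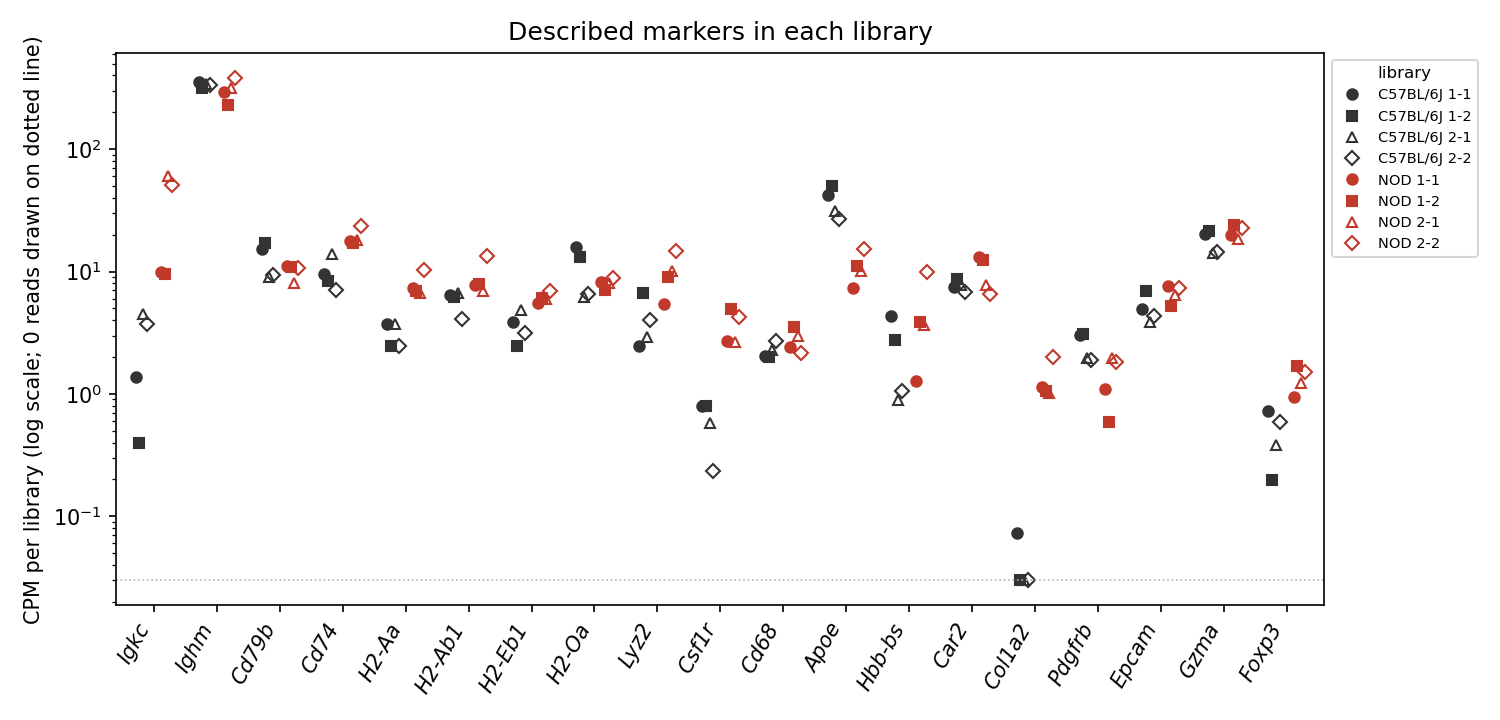
Level of the described markers in each of the 8 libraries in CPM (log axis), with C57BL/6J dark, NOD red and a dotted line for libraries with 0 reads. Col1a2 has 0 reads in 3 C57BL/6J libraries and 1.02 to 2.02 CPM in NOD, and Apoe is the gene whose C57BL/6J libraries all lie above NOD.

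Epithelial markers were low in both strains, and none was called by edgeR or DESeq2. Epcam, an adhesion protein of epithelial cells, was at 4.95, 6.95, 3.88 and 4.34 CPM in C57BL/6J and at 7.65, 5.23, 6.39 and 7.40 CPM in NOD. Those ranges overlapped, with a log2 fold change of 0.38 ± 0.35 and an adjusted p of 0.771. Krt5 and Krt8, keratins of medullary and cortical thymic epithelium, had log2 fold changes of 1.75 ± 0.64 and 0.72 ± 0.78, with adjusted p-values of 0.250 and 0.820. Psmb11, the proteasome subunit of cortical epithelium, did not pass the filter on low counts. The class had 1 gene higher and 0 lower at an unadjusted p under 0.05.

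Among the NK and cytotoxic genes Gzma was the most abundant, at 20.2, 21.3, 14.1 and 14.5 CPM in C57BL/6J and 20.02, 23.9, 18.4 and 22.8 CPM in NOD. The strains overlapped, C57BL/6J sample 2 was lowest, and the log2 fold change of 0.22 ± 0.26 had an adjusted p of 0.838. Ccl5, a chemokine of cytotoxic and memory T cells, was at 1.97, 0.993, 0.764 and 0.469 CPM against 2.72, 2.19, 2.83 and 2.73 CPM, without overlap, and its log2 fold change of 1.18 ± 0.51 had an adjusted p of 0.362. Nkg7, a protein of cytotoxic granules, had an adjusted p of 0.913. Ncr1, the NK receptor NKp46, had 0, 0, 5 and 0 reads in C57BL/6J and 2, 0, 4 and 6 in NOD. No gene of this class was called by edgeR or DESeq2, and 1 was higher and 0 were lower at an unadjusted p under 0.05.

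Foxp3, the transcription factor of regulatory T cells, was at 0.728, 0.199, 0.382 and 0.586 CPM in C57BL/6J and at 0.935, 1.69, 1.22 and 1.503 CPM in NOD. The strains did not overlap, at 0.479 ± 0.0353 and 1.33 ± 0.0249 CPM (SD, n = 2), and the log2 fold change of 1.42 ± 0.50 had an adjusted p of 0.216. Foxp3 shares 853 exon bases with Flicr on the same strand (0.354 and 0.233 CPM), which no strand setting could separate. On the other strand it shares 590 with Ccdc22, 373 with Gm36995 and 266 with Ppp1r3f, so its count is uncertain.

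By class, the libraries of the strains overlapped in the summed level of 5 of 7 classes, and all NOD libraries lay above C57BL/6J for class II and red cell genes. B cell genes summed to 357 ± 0.569 CPM for C57BL/6J and 348 ± 91.0 CPM for NOD (SD, n = 2 samples). Ighm, which is not particular to B cells, made up most of both sums, so they say little of the other B cell genes. Class II genes summed to 33.8 ± 3.89 and 49.7 ± 5.35 CPM, a ratio of 1.47. Red cell genes summed to 10.7 ± 2.81 and 16.5 ± 0.129 CPM, and stromal genes to 2.83 ± 0.506 and 3.12 ± 1.15 CPM. Epithelial genes summed to 5.38 ± 1.42 and 7.74 ± 0.0809 CPM, and NK and cytotoxic genes to 19.4 ± 5.24 and 24.8 ± 0.883 CPM. The plot of class sums shows NOD library 2-2 highest for B cell, class II, red cell, stromal and epithelial genes.

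**Figure D5:**
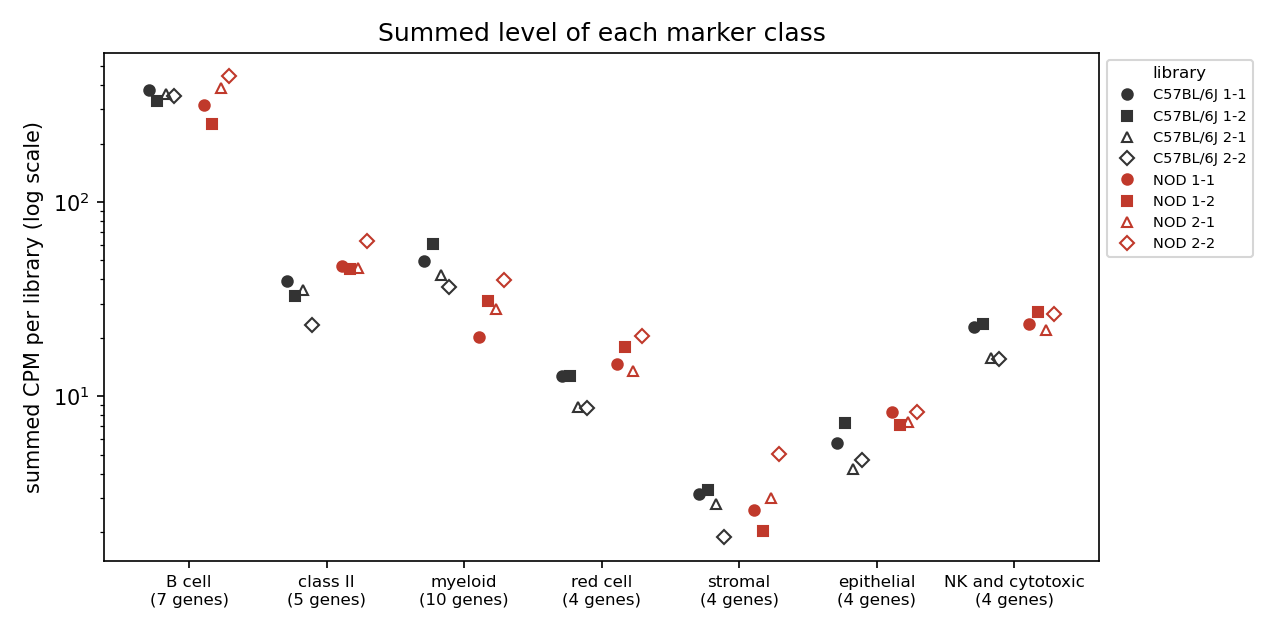
Summed level of each marker class in every library in CPM (log axis), with C57BL/6J dark, NOD red and open symbols for B number 2. The class II sum reaches 62.8 CPM in NOD library 2-2 against 23.3 to 39.4 CPM in C57BL/6J, and the myeloid sum, mostly Apoe, reaches 60.8 CPM in C57BL/6J.

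The remaining 20 markers had mean levels of 0.0206 CPM (Mpo) to 1.81 CPM (Itgam) in C57BL/6J and of 0 (S100a9) to 2.62 CPM (Ccl5) in NOD. Differences between the 2 libraries of a sample were common among the markers. Of those with 20 to 2000 reads, 3 of 18 differed beyond counting error in C57BL/6J sample 1, 3 of 17 in C57BL/6J sample 2, 10 of 28 in NOD sample 1 and 15 of 30 in NOD sample 2. The same held for 34.5%, 12.6%, 36.4% and 44.2% of all genes in that range. In NOD sample 2, H2-Ab1 in library 2-2 stood at 1.96 times library 2-1 (1.65 to 2.34). In NOD sample 1 the Igkc levels of both libraries, with a ratio of 0.963 (0.798 to 1.16), did not differ beyond counting error.

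Further markers of the same cells came from 10 wider lists with 155 genes found. Of these 9 had no read in any library, 104 stayed under 1 CPM on average in both strains, and 84 passed the filter. Iglc2 and Cxcr2 were called higher in NOD by edgeR, 2 of 84 beside 1.91% of all tested genes, and 0 were called lower beside 1.78%. At an unadjusted p under 0.05 in that fit, 15 were higher and 5 were lower, beside 6.81% and 6.3% of all tested genes. DESeq2 called 3 higher and 0 lower, beside 2.77% and 2.65%. Iglc2 and Cxcr2 both passed the filter through NOD. Iglc2, an immunoglobulin lambda constant gene, had 2 reads in C57BL/6J and 237 in NOD. Scaled to depth this ratio was 55.3 (counting interval 15.1 to 459.5), with an adjusted p of 0.00736. Cxcr2, a chemokine receptor of neutrophils, had 3 reads against 166, a ratio of 25.8 (counting interval 8.69 to 126.6) and an adjusted p of 0.0189. Without library 2-1 both had 0 reads in C57BL/6J. With a floor of 3 counts over that strain, NOD was 24.8-fold higher for Iglc2 and 17.4-fold higher for Cxcr2. These values leave out the counting error of the NOD reads. Both calls were lost without C57BL/6J sample 1, at adjusted p-values of 0.0583 and 0.117. The other wider neutrophil and mast cell genes were near 0, and most did not share the direction of Cxcr2. With no filter on low counts, 11 genes of this list, Cxcr2 among them, were fitted. Their median log2 fold change was -1.30 and 18.2% were positive, beside 0.12 and 56.9% over all genes fitted that way. S100a8 and S100a9 also had more reads in C57BL/6J. The median log2 fold change of the 84 genes was 0.35.

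The most abundant wider B cell genes were Jchain, the joining chain of secreted antibodies, and Pou2af1, a B cell coactivator. Jchain was at 0.728, 0.496, 0.637 and 1.76 CPM in C57BL/6J and at 5.95, 1.10, 14.4 and 12.5 CPM in NOD, again highest in NOD sample 2, with overlap through NOD library 1-2. Its log2 fold change was 3.31 with an adjusted p of 0.0513, and 2.04 (0.0159) without NOD sample 2. Pou2af1 was at 1.60 ± 0.285 and 2.37 ± 0.867 CPM. For class II the leading genes were H2-DMa, a peptide loading chaperone, at 5.62 ± 0.717 and 7.22 ± 1.502 CPM, and Fscn1, of mature dendritic cells, at 3.09 ± 1.80 and 5.26 ± 0.609 CPM. H2-DMa shares 360 exon bases with Brd2 on the other strand, a gene at 431 and 367 CPM, so its count is uncertain. Among macrophage genes Cst3, a secreted protease inhibitor, was at 31.8 ± 5.51 and 38.8 ± 5.19 CPM. Prf1, the perforin of cytotoxic cells, was at 4.81 ± 0.913 and 6.48 ± 1.88 CPM, and Il2rb, an interleukin receptor chain, at 2.00 ± 0.270 and 3.28 ± 0.831 CPM.

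The other leading wider genes spanned a wide range of levels, and several were as abundant as genes of the sorted stage. Which cells their RNA came from was not tested, so these levels are not a measure of other cells in the sort. Ccr9, the gut and thymus homing receptor, was at 1082.5 ± 77.5 and 1265 ± 279.7 CPM, and Tcf4 at 57.4 ± 7.65 and 62.0 ± 1.72 CPM. Ikzf2 stood at 168 ± 39.6 and 196 ± 21.8 CPM, and Tnfrsf18 at 14.6 ± 4.18 and 13.3 ± 3.52 CPM. Pecam1 stood at 145 ± 2.14 and 134 ± 3.06 CPM and Myh11, of smooth muscle, at 0.644 ± 0.198 and 0.722 ± 0.123 CPM. Spint2 stood at 116 ± 21.4 and 133 ± 0.608 CPM and Ccl25, the ligand of Ccr9, at 22.6 ± 7.05 and 31.5 ± 8.999 CPM. Ccl25 shares 204 exon bases with Elavl1 on the other strand, a gene at 156 and 155 CPM, so its count is uncertain. Hemgn stood at 8.54 ± 1.17 and 6.00 ± 5.31 CPM, Itga2b, an integrin of platelets, at 1.37 ± 0.572 and 1.59 ± 0.445 CPM, and Cpa3, of mast cells, at 0.145 ± 0.0865 and 0.0603 ± 0.0345 CPM.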

How the data were processed

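The authors deposited raw counts, whole reads per Ensembl gene, as a table for each library. Alignment was to GRCm38 by STAR 2.5.0a and counting by HTSeq 0.6.1, per the submitters' processing notes. The sources used here do not give the annotation release, strand setting or duplicate removal. Between 39.98% and 59.1% of listed reads lay outside genes and were not used. Of 53465 genes, 53360 had an identifier in GENCODE M21. H2-Ea, of the wider lists, was not matched.

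Counts were divided by the reads in genes of each library (CPM), so library totals scale all levels. The 8 libraries were summed by strain and B number. Genes kept by filterByExpr were scaled by TMM factors and tested two-sided in R 4.3.3 with glmQLFTest of edgeR 4.0.16 (robust, with strain alone in the model). The standard error is the log2 fold change divided by the square root of F. DESeq2 1.42.0 was an alternative, as were other filters, scalings, a replicate block and left-out samples. The fits were tested on simulated data. Thinning, intervals and figures used Python 3.11.15, scipy 1.17.1 and matplotlib 3.10.9. The 95% intervals and the floors take in counting error alone and leave out the spread between libraries and samples. No molecular identifiers were used in counting, so they rest on reads and not on molecules. The labels do not show whether B numbers pair the strains. The members and lists were chosen with earlier results of these data known.

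Values per library or sample are given for every called member, every member with a mean of at least 2 CPM over the 8 libraries and the top member of each class. The others are given by range and count, with single members named after their values were seen. Of the wider and reference lists, the called genes and the 2 with the highest mean CPM are named, except for 1 gene that is not reported here.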

Additional observations from a re-analysis of the deposited data

Results flagged for a closer look

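Among the 52 groups of 4 libraries examined for a library far from the other 3, 6 held one. A rate of about 1 in 20 holds for independent values. It does not apply here, because libraries of a sample are not independent and the class II sum contains Cd74 and H2-Ab1. The groups share libraries, and 4 of the 6 concern NOD library 2-2. That library was high for Cd74 at 23.4 CPM (the others at 17.2 to 18.1 CPM), for H2-Ab1 at 13.5 CPM (6.88 to 7.97 CPM), for the summed class II genes at 62.8 CPM (45.2 to 46.6 CPM) and for Col1a2 at 2.02 CPM (1.02 to 1.15 CPM). NOD library 2-1 was low for Cd79b, at 8.03 CPM against 10.6 to 11.1 CPM. C57BL/6J library 1-1 was the only one of its strain with a Col1a2 read, at 0.0728 CPM, a pattern that the rule always flags.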

How the results depend on the processing

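The strain comparison rests on 2 samples per strain, so single samples decide calls. The 2 markers called higher in NOD became 5 with DESeq2, 5 with no filter on low counts and 5 with the 8 libraries as samples. Over all tested genes the share called higher also moved, from 1.91% to 2.77%, 1.84% and 4.85% in the same order. The 1 called lower became 2 with no filter, beside 1.54% of all genes in that fit and 1.78% in the main fit. The 2 wider genes called higher became 6 with no filter and 6 with the 8 libraries as samples, beside 1.84% and 4.85% of all tested genes. The 0 called lower became 1 and 3 in the same order, beside 1.54% and 5.23%. Calls of markers and wider genes also changed when a sample was left out, and so did the share called over all tested genes. Without C57BL/6J library 2-1, and after thinning to 8.527 M reads, 2 markers were called higher and 1 lower, as reported. Of all tested genes 1.68% and 1.88% were then called higher, and 1.57% and 1.75% lower. The log2 fold change changed sign when a sample was left out for Cd79b (-0.77 to 0.14), H2-Oa (-0.98 to 0.34), Car2 (-0.15 to 0.69), Alas2 (-0.58 to 1.57), Nkg7 (-0.084 to 0.66) and Gzma (-0.070 to 0.57), of the 32 tested markers. For the 3 called markers, 35 of 39 alternative values kept direction and call and 4 lost the call. For the 29 not called, 15 of 363 gained a call. The log2 ratio of the class sums changed sign for B cell genes (-0.036, with -0.33 to 0.21 when a sample was left out) and stromal genes (0.14, with -0.30 to 0.47). The B cell sum was mostly Ighm. TMM-scaled totals and the analysis without library 2-1 were chosen after seeing the data, and so was a crossed pairing. Deviations of same-numbered samples correlated at -0.123 over 17291 genes. The samples share only a number: with the replicate block 3 markers were called higher and 1 lower (wider genes 3 and 0; Igkc gained a call at an adjusted p of 0.000281), and with crossed pairs 3 and 1 (2 and 0). Of all tested genes 1.57% were called higher and 1.39% lower with the block, and 2.35% and 2.09% with crossed pairs. The cause of these changes was not tested. In the shallowest library a count of 0 allows a level of up to 0.352 CPM.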

Other observations

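Immunoglobulin lambda reads were unevenly spread over the 2 libraries of each sample. The 4 lambda constant genes held 46 and 1 reads in the libraries of C57BL/6J sample 1, and 8 and 1 in those of sample 2. In NOD they held 155 and 44 reads in sample 1, and 147 and 59 in sample 2. The 3 lambda variable segments held 42 and 0 reads in NOD sample 1, and 41 and 6 in NOD sample 2. These sums were chosen after their values were seen and carry no test.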
